A study of Mus musculus with 2 samples.

Results

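Transcripts of 9 histone chaperone genes were followed through the cells of 2 single-cell libraries: Ssrp1 and Supt16, which encode both subunits of FACT, together with Supt6, Nap1l1, Npm1, Asf1a, Asf1b, Chaf1a and Chaf1b. They were taken by gene symbol, and all 9 were found among the 32285 genes listed in each library. The cells came from female BALB/cAnNCrl mice, 7 to 8 weeks old when purchased, that carried liver metastases of 4T1, a mouse mammary carcinoma line. They were collected 5 days after treatment with vehicle or with CBL0137 at a low or a high dose, and the study delivered its treatments by hepatic arterial infusion. Cells of 2 mice were pooled in each group, and every group carried the tumor, the vehicle group included. Antibodies with an oligonucleotide barcode, called hashtags, told the groups apart within a library: A0301 for the vehicle, A0305 for the low dose and A0310 for the high dose. No source used here states the doses, and the study's methods list the A0305 barcode without naming it for the staining. The methods describe cells isolated with CD11b beads and the labels describe leukocytes. Both libraries held T cell-like and B cell-like cells.

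The library labelled liver held 3103 vehicle, 3194 low dose and 2138 high dose cells, with a median of 4497, 4663 and 4794 UMIs (unique molecular identifiers, 1 per captured transcript) per cell. The library labelled spleen held 822, 1301 and 865 cells, with medians of 5107.5, 4694 and 7930 UMIs. Tissue markers went against these labels: the sum of 10 hepatocyte genes, scaled to 1000000 UMIs (CPM), was 0.160 in the library labelled liver, where 5 of the 10 were at 0, against 104 in the library labelled spleen. Genes of Kupffer cells (4 genes) stood at 8.56 and 437 CPM and sinusoidal endothelial genes (3 genes) at 0.364 and 136 CPM. The deposited matrices carry names with the tissues swapped relative to the labels. Each library is therefore called by its label alone, and no value here is tied to a tissue. The libraries shared 15 barcodes, of which 6 carried a group in both and 0 the same group. In the library labelled spleen, 1627 barcodes had no hashtag call, and their median was 1803 UMIs. A0310, the high dose hashtag, was dominant in 1425 of them, against 865 high dose cells kept with a median of 7930 UMIs. High dose values of that library therefore describe called cells only, which were deeper than the uncalled barcodes. Each group was 1 pooled sample per library, so there was no replicate and no test was run. The 95% intervals are exact and cover the error of counting alone and leave out differences between mice. In summed UMIs, fewer expressing cells in a class and less RNA per cell cannot be told apart.

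Histone chaperones carry histones to and from DNA. FACT loosens the H2A-H2B dimers of a nucleosome so that polymerases can pass and puts the nucleosome together again behind them, and Supt6 handles histones with RNA polymerase II during transcription. Asf1 hands newly made H3-H4 to the CAF-1 complex, whose large and middle subunits are Chaf1a and Chaf1b and which deposits them behind the replication fork. Nap1l1 shuttles H2A-H2B, and Npm1 is an abundant nucleolar protein with roles in histone binding and ribosome assembly. FACT is known to be high in progenitor and tumor cells and low in most differentiated cells. CBL0137 is a curaxin, a DNA-binding small molecule that traps FACT on chromatin.

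In the mouse assembly mm10 (GENCODE release 21 positions), Ssrp1 (ENSMUSG00000027067) lies at chr2:85037234-85047109 and Supt16 (ENSMUSG00000035726) at chr14:52160414-52197416. Supt6 (ENSMUSG00000002052) lies at chr11:78206746-78245987, Nap1l1 (ENSMUSG00000058799) at chr10:111473223-111498150 and Npm1 (ENSMUSG00000057113) at chr11:33152287-33163206. Asf1a (ENSMUSG00000019857) is at chr10:53596757-53609225 and Asf1b (ENSMUSG00000005470) at chr8:83955507-83970197. Chaf1a (ENSMUSG00000002835) is at chr17:56040439-56072289 and Chaf1b (ENSMUSG00000022945) at chr16:93883901-93906115. Supt16, Supt6 and Npm1 are on the minus strand and the other members on the plus strand. An annotated gene on the opposite strand overlaps 5 of the 9 (P2rx3 at Ssrp1, Rpgrip1 at Supt16, Sdf2 at Supt6, Mcm9 at Asf1a and Ubxn6 at Chaf1a), and no source used here states whether the counting used strand. On the same strand an annotated gene overlaps 2 of the 9 (Gm25117 at Nap1l1 and Gm49617 at Chaf1b). Counts of Npm1 and Nap1l1 are uncertain to the extent that near-identical copies in the genome shared their reads.

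Promoter sequences of RefSeq (GRCm38.p6, from 250 bases before to 50 bases after the annotated start) matched 8 of the 9 members by symbol. Those printed here are the promoters of Asf1b, Chaf1a and Chaf1b, whose transcripts lay with the cycling cells in the results that follow, and of both FACT subunits, which differed from each other in neutrophil-like cells. Capitals mark E2F-type words (the word TTCCCGC, the word TTCGCGC, the word TTGCCGC and the word TTGGCGC) and CCAAT, each on either strand. Of 32851 promoters of the same length, 9.57% held at least 1 of the E2F-type words and 37.4% held CCAAT.
Asf1b: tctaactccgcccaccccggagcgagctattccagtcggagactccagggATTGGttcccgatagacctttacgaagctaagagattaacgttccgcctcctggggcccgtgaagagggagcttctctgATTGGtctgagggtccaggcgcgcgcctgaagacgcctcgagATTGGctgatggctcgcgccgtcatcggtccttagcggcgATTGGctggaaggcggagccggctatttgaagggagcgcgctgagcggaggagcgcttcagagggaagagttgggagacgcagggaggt
Chaf1a: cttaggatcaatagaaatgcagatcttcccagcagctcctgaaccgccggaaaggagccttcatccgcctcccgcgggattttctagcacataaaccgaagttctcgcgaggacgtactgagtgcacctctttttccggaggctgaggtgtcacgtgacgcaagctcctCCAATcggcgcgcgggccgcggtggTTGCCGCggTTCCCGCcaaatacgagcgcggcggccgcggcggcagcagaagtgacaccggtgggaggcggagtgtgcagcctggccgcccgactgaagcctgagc
Chaf1b: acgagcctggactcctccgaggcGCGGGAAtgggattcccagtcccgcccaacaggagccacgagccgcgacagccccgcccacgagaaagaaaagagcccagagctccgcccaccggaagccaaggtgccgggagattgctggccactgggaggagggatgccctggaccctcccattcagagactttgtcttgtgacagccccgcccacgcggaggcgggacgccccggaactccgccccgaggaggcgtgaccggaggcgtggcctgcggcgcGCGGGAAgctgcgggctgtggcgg
Ssrp1: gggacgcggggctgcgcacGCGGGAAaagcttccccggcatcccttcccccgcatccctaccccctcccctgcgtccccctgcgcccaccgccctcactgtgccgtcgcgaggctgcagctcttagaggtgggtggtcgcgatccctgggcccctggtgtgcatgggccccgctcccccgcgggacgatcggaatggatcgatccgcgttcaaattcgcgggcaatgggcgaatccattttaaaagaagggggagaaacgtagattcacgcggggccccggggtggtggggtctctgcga
Supt16: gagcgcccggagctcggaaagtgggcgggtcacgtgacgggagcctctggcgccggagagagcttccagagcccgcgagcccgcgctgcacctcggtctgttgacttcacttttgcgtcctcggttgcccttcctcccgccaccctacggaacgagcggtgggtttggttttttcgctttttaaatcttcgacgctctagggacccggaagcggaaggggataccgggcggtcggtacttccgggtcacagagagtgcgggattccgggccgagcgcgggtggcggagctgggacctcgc
The Asf1b window (chr8:83955444-83955743, plus strand) held 4 CCAAT matches and 0 E2F-type words, and 1.06% of all promoters held 4 or more CCAAT matches. The Chaf1a window (chr17:56040166-56040465, plus strand) held 2 E2F-type words and 1 CCAAT, and the Chaf1b window (chr16:93883651-93883950, plus strand) held 2 E2F-type words. RefSeq lists 2 Ssrp1 windows. The printed one (chr2:85037201-85037500, plus strand) held 1 E2F-type word and the other (chr2:85036870-85037169) 0 of either, while that of Supt16 (chr14:52197190-52197489, minus strand) held 0 of either. Of the windows not printed, that of Nap1l1 held 1 E2F-type word and 1 CCAAT, that of Asf1a 1 CCAAT and that of Supt6 0 of either. The printed members were picked by their levels in these data, so their words are no test of a link with cycling. These matches describe the letters only.

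FACT transcripts were lowest in neutrophil-like cells among the blood cell classes of the library labelled liver and highest in stem or early progenitor-like cells. Ssrp1, the HMG-box subunit that contacts DNA, stood at 11.3 CPM (95% interval 9.50 to 13.4, 136 UMIs in 1430 cells) in vehicle neutrophil-like cells and at 86.3 CPM (77.0 to 96.5) in granulocyte progenitor-like cells. The stem or early progenitor-like class was 1 cluster, in which all 8 markers of its list were raised but 1 of them, Myb, was among the 10 leading genes, beside the erythroid marker Car1, Car2, Alad of heme synthesis and the granulocyte progenitor marker Mpo. Ssrp1 stood at 227 CPM (200 to 256) in its 31 vehicle cells, 114 in monocyte-like, 104 (92.7 to 116) in T cell-like, 116 (102 to 132) in B cell-like and 156 (101 to 231) in NK cell-like cells. The intervals of T cell-like, B cell-like and NK cell-like cells overlapped, so counting error alone gives no order among them. Supt16, the large subunit, stood at 36.8 CPM (33.5 to 40.4) in neutrophil-like cells, 71.7 (63.2 to 80.9) in granulocyte progenitor-like cells and 300 (269 to 333) in stem or early progenitor-like cells. Its T cell-like and B cell-like levels were 96.2 and 118 CPM. Of 10323 genes tested in that library, 5248 were at least 2-fold higher in T cell-like than in neutrophil-like vehicle cells and 1723 lower. The median of all genes was 1.04 on the log2 scale, and of the 9 members 6 were higher and 0 lower. S100a8 and S100a9 took 32.4% of the UMIs of neutrophil-like and 0.142% of those of T cell-like cells. The part of this in the lower FACT level of neutrophil-like cells was not tested.

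**Figure D1:**
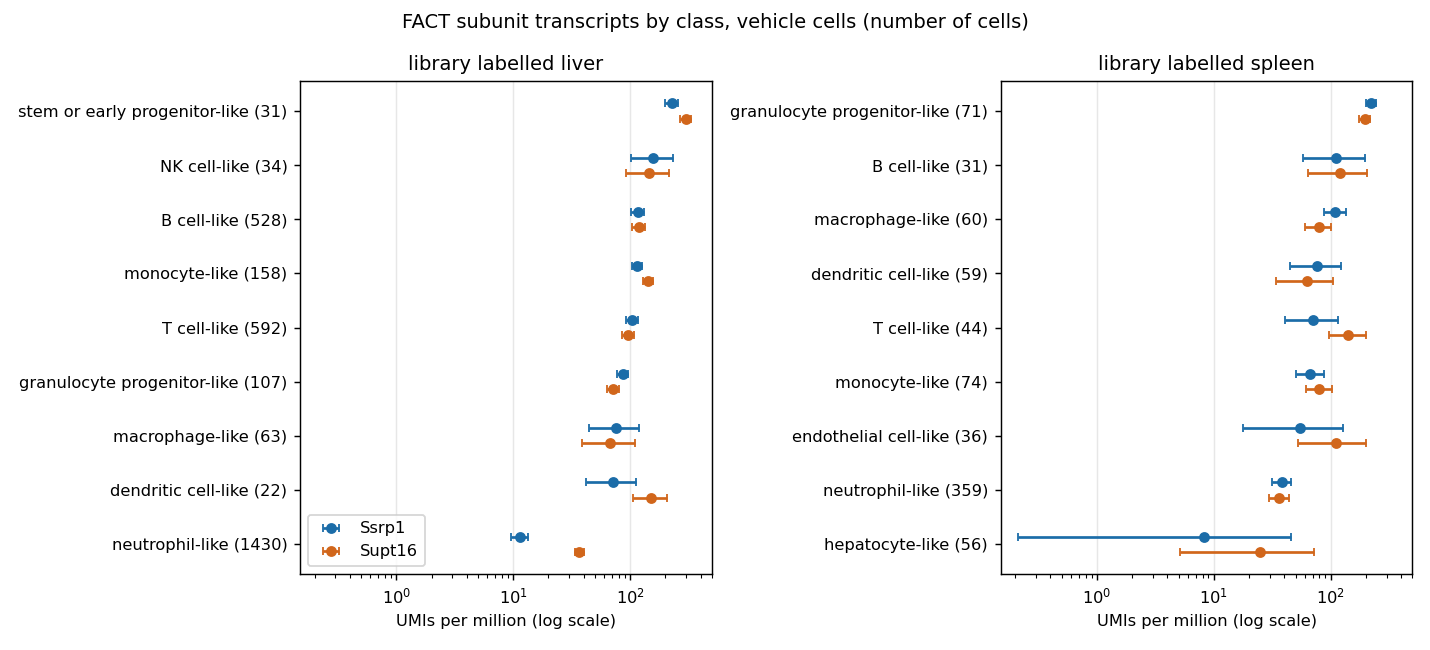
Ssrp1 (blue) and Supt16 (orange) in CPM on a log axis, with exact 95% counting intervals, for each class with at least 20 vehicle cells in the 2 libraries; the number of cells is given with each class. Neutrophil-like cells had the lowest Ssrp1 level in the library labelled liver (11.3), and hepatocyte-like cells had the lowest in the library labelled spleen (8.28, from 1 UMI).

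The library labelled spleen had its lowest blood cell level in neutrophil-like and its highest in granulocyte progenitor-like cells as well. Vehicle neutrophil-like cells (359 cells) had 38.4 CPM of Ssrp1 and 36.3 of Supt16, and granulocyte progenitor-like cells (71 cells) had 221 (199 to 245) and 196. Macrophage-like cells had 109 and 79.0 CPM of Ssrp1 and Supt16, monocyte-like cells 67.0 and 79.9, T cell-like cells 70.6 and 141 and B cell-like cells 111 and 121. Of 6819 genes tested, 2948 were at least 2-fold higher in T cell-like than in neutrophil-like vehicle cells and 1033 lower. Of the 9 members 3 were higher and 1 lower. The median was 0.77 for all genes and 0.88 for the members on the log2 scale. Hepatocyte-like cells, the parenchymal cells of the liver, held 1 UMI of Ssrp1 (8.28 CPM, 0.210 to 46.1) and 3 of Supt16 (24.8 CPM, 5.12 to 72.6) in 56 vehicle cells, and mitochondrial genes were among those that led their cluster. Their low depth leaves the FACT level of hepatocyte-like cells known within wide limits.

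RNA of other cells can add UMIs to a droplet, and this was read from lymphocyte markers. Among vehicle neutrophil-like cells in the library labelled liver, 11 T cell markers summed to 1.26% of their T cell-like level and 9 B cell markers to 0.296% of their B cell-like level. Ssrp1 stood at 10.9% and Supt16 at 38.3% of the T cell-like level in the same cells. For the library labelled spleen the marker shares were 0.564% and 0.0249%, and those of Ssrp1 and Supt16 were 54.3% and 25.7%. Both subunits thus lay above the share at which these foreign markers were found. Lymphocyte markers follow the RNA of lymphocytes alone, whereas other classes also held Ssrp1 and Supt16 and could add theirs. These shares therefore set no limit on the foreign part of either subunit, which was not tested. The neutrophil-like class of the library labelled spleen also included a cycling cluster with more Ssrp1, described below.

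In the library labelled liver, neutrophil-like cells had another balance of the FACT subunits than progenitor-like, T cell-like and B cell-like cells. UMIs of 2 genes are not a ratio of transcripts, so the number of Supt16 UMIs per Ssrp1 UMI was compared between classes only. It was 3.25 (95% interval 2.68 to 3.97) in vehicle neutrophil-like cells in the library labelled liver, against 0.83 in granulocyte progenitor-like, 0.93 in T cell-like and 1.02 in B cell-like cells. Vehicle dendritic cell-like cells gave 2.11 (1.18 to 3.93), which overlaps the neutrophil-like interval. Low dose neutrophil-like cells gave 3.25 and high dose cells 2.61. The vehicle neutrophil-like value of the library labelled spleen was 0.947 (0.720 to 1.24), where the class held cells of different kinds and did not stand above the others. T cell-like and endothelial cell-like cells of that library gave 2.0 (1.07 to 3.90) and 2.0 (0.623 to 7.46).

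Single clusters separated these cells further. In the library labelled liver, over all assigned cells, neutrophil-like clusters 2 and 3, led by Il1b, Igfbp6 and Csf3r, had 12.2 and 8.23 CPM of Ssrp1 and 59.4 and 44.0 of Supt16, or 4.88 (3.56 to 6.80) and 5.35 (3.50 to 8.47) Supt16 UMIs per Ssrp1 UMI. Cluster 6, led by stefin genes, had 3.46 CPM of Ssrp1 and 22.1 of Supt16, a ratio of 6.38, and cluster 9, led by Prok2 and Retnlg, had 3.92 and 17.0, a ratio of 4.33. Cluster 7, led by the granule protein genes Ltf, Camp and Ngp of less mature neutrophils, had 14.3 and 23.5 CPM, a ratio of 1.65 (1.34 to 2.04). The ratio was 0.86 (0.77 to 0.95) in the granulocyte progenitor-like cluster and 1.28 in the stem or early progenitor-like cluster. Clusters 0, 1, 3 and 13 of the library labelled spleen gave ratios of 5.62, 2.28, 2.33 and 6.33, with lower limits of 2.62, 1.40, 1.02 and 1.86. Cluster 8 of that library, led by Camp, Cebpe and Fcnb and counted as neutrophil-like by the markers, had 79.8 CPM of Ssrp1 and 47.4 of Supt16, a ratio of 0.59 (0.48 to 0.73). The lower Ssrp1 of most neutrophil-like clusters therefore stood beside a smaller difference in Supt16 in both libraries, and cluster 8 was the exception.

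**Figure D2:**
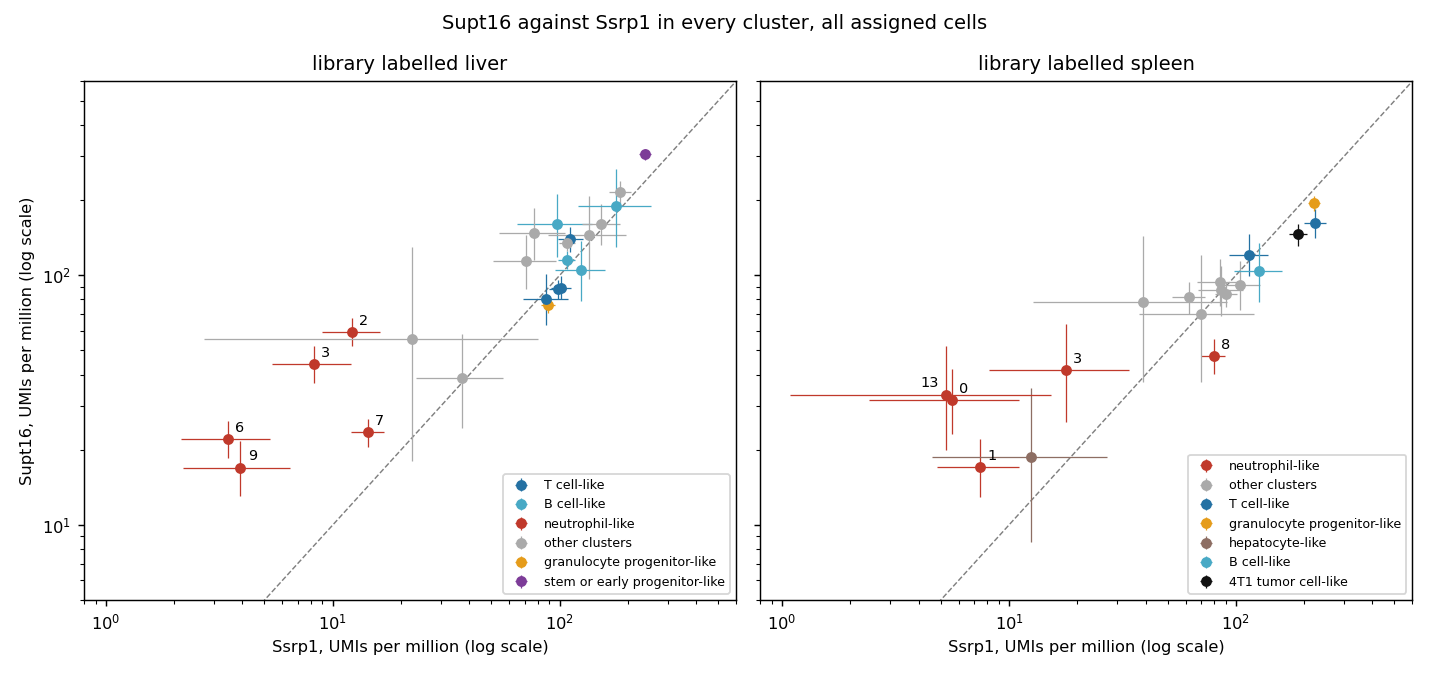
Supt16 against Ssrp1 in CPM (both axes log) in every cluster over all assigned cells, with exact 95% counting intervals; neutrophil-like clusters are red and numbered, and the dashed line marks equal UMIs. Neutrophil-like clusters lie above the line at low Ssrp1, except cluster 8 of the library labelled spleen, which lies below it at 79.8 and 47.4.

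Cell cycle genes were summed in the same clusters. A list of G2/M genes summed to 17.5, 21.8, 19.4 and 8.62 CPM in clusters 2, 3, 6 and 9 of the library labelled liver, to 456 in cluster 7, to 2475 in the granulocyte progenitor-like cluster and to 1671 in the stem or early progenitor-like cluster. Within the library labelled spleen it summed to 14.04, 98.3, 25.8 and 10.5 CPM in clusters 0, 1, 3 and 13 and to 2414 in cluster 8, close to the 2335 of the granulocyte progenitor-like cluster. The order of the G2/M sums was not that of FACT throughout. Stem or early progenitor-like cells had less G2/M but more Ssrp1 than granulocyte progenitor-like cells. Vehicle T cell-like cells of the library labelled liver had 40.2 CPM of the G2/M list beside 104 of Ssrp1. A list of S phase genes stood at 1942 CPM in stem or early progenitor-like and 1373 in granulocyte progenitor-like cells, the order of Ssrp1. Among vehicle cells of that library it summed to 250 CPM in T cell-like and 88.4 in neutrophil-like cells, also the order of Ssrp1. Granulocyte progenitor-like vehicle cells had 1290 CPM of it, above T cell-like cells, which was not the order of Ssrp1. The part of cycling in the FACT levels was not tested. Without cluster 8, the vehicle neutrophil-like cells of the library labelled spleen had 8.41 CPM of Ssrp1 and 31.2 of Supt16. Those of the library labelled liver had 11.3 and 36.8 CPM with all their clusters, cluster 7 included, so the sets are not alike.

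Granulocyte progenitor-like cells, the Mpo and Elane expressing precursors of neutrophils, held more of most members than neutrophil-like cells. In the library labelled liver, FACT (Ssrp1 plus Supt16 UMIs) was 3.28-fold higher in progenitor-like than in neutrophil-like vehicle cells, a log2 ratio of 1.71 (95% interval 1.55 to 1.88). Ssrp1 differed by 2.93 (2.64 to 3.23) on the log2 scale and Supt16 by 0.96 (0.73 to 1.19). Of the 9 members, 7 were at least 2-fold higher in progenitor-like cells and 0 were lower by that fold, where 22.6% of 9491 genes tested were higher. The members' median was 2.55 and that of all genes -0.01 on the log2 scale, which became -0.16 without the 20 most abundant genes of the library in the total. Supt16 and Supt6 were the members below the fold. At a clustering resolution of 0.4 the FACT difference was 2.36.

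FACT differed by 2.48 (2.26 to 2.71) between the same classes of the library labelled spleen, Ssrp1 by 2.53 and Supt16 by 2.43. There 8 of the 9 members were at least 2-fold higher, and so were 51.3% of 8492 genes, and the median of all genes was 1.05 against 2.14 for the members. S100a8 and S100a9 alone took 29.3% of the UMIs of neutrophil-like cells there and 1.52% of those of progenitor-like cells, which lowers the CPM of the other genes in neutrophil-like cells. Without the 20 most abundant genes of the library in the total, the split of all genes went from 4360 higher and 790 lower to 2872 and 1350, their median to 0.43, and the FACT difference to 1.86. The progenitor-like classes were also not alike. Elane, Prtn3, Fcnb and Cebpe led the one of the library labelled liver, where S100a8 and S100a9 took 27.1% of the UMIs. In the library labelled spleen Ctsg, Mpo, Mcpt8, Myb and Cd34 were among the leading genes, of which Mcpt8 is a listed basophil or mast cell marker.

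**Figure D3:**
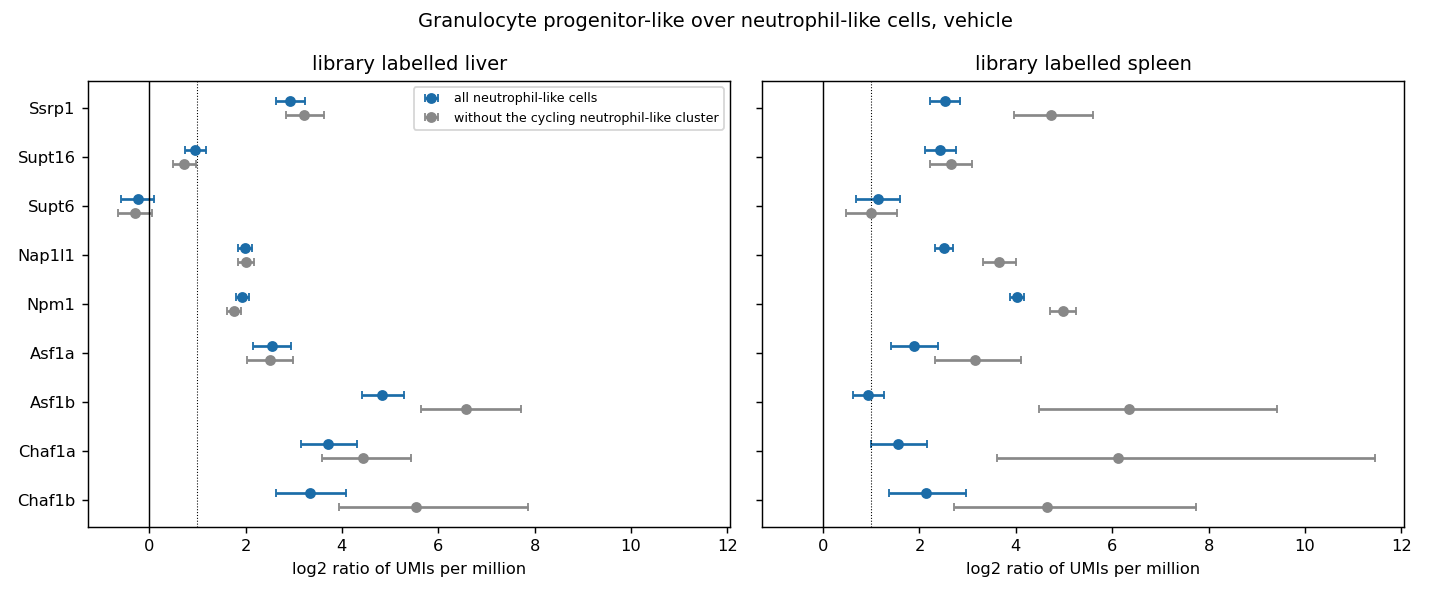
Log2 ratio of each member between granulocyte progenitor-like and neutrophil-like vehicle cells in the 2 libraries, with exact 95% counting intervals, for all neutrophil-like cells (blue) and without the neutrophil-like cluster with the most G2/M UMIs (grey); the solid line is no difference and the dotted line 2-fold. Supt6 lies at -0.23 in the library labelled liver. Asf1b moves from 0.94 to 6.36 in the library labelled spleen when that cluster is left out, with few Asf1b UMIs remaining in neutrophil-like cells.

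Supt6, the transcription-coupled chaperone, differed least of the 9 members between the neutrophil-like and granulocyte progenitor-like classes of the library labelled liver. Its vehicle level was 30.9 CPM in neutrophil-like cells, 26.3 in granulocyte progenitor-like cells, 65.2 in stem or early progenitor-like cells, 58.7 in T cell-like and 58.1 in B cell-like cells. The progenitor-like over neutrophil-like difference was -0.23 (-0.57 to 0.10) on the log2 scale, so no difference could be shown at this depth. Supt6 of the library labelled spleen stood at 25.1 CPM in neutrophil-like and 55.2 in progenitor-like cells, a difference of 1.14, close to the 1.05 of all genes there.

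Nap1l1 and Npm1, the chaperones of free H2A-H2B and of the nucleolus, were among vehicle cells also highest in a progenitor-like class in each library. Nap1l1 stood at 59.3 CPM in vehicle neutrophil-like cells in the library labelled liver, 234 in granulocyte progenitor-like, 409 in monocyte-like, 550 in dendritic cell-like and 756 in stem or early progenitor-like cells. T cell-like cells had 180 CPM and B cell-like cells 367, so Nap1l1 separated the lymphocyte classes more than Ssrp1 did. Npm1 had 72.6 CPM in neutrophil-like, 278 in granulocyte progenitor-like, 929 in B cell-like, 1063 in monocyte-like, 1219 in T cell-like and 3950 in stem or early progenitor-like cells. Npm1 of the library labelled spleen went from 141 CPM in neutrophil-like to 2301 in granulocyte progenitor-like cells, a difference of 4.03 on the log2 scale and the largest of the 9 members there, and Nap1l1 from 108 to 610, a difference of 2.50. The order of Npm1 thus put the progenitor-like class of the library labelled spleen above its T cell-like class (1068 CPM) and that of the library labelled liver below its T cell-like class. The 4T1 tumor cell-like class of the library labelled spleen, described below, was near its progenitor-like class in Npm1. Its 11 vehicle cells had 2165 CPM (1920 to 2434), which overlaps the progenitor-like interval of 2228 to 2375. At the high dose it had 2752 CPM, against 2175 in 14 progenitor-like cells.

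The Asf1 paralogs were spread over the classes in different ways. Asf1b, the paralog tied to proliferating cells, stood at 119 CPM in vehicle granulocyte progenitor-like cells of the library labelled liver, 89.6 in stem or early progenitor-like, 75.8 in monocyte-like, 5.70 in T cell-like and 4.16 in neutrophil-like cells. The first of these was 28.6-fold the last, 4.84 (4.42 to 5.29) on the log2 scale, which made Asf1b the member with the largest difference in that library. Asf1a, the paralog of non-dividing cells as well, stood at 41.5 CPM in granulocyte progenitor-like, 85.2 in stem or early progenitor-like, 36.2 in T cell-like and 7.08 in neutrophil-like cells, a difference of 2.55 between progenitor-like and neutrophil-like cells. T cell-like cells of that library therefore held Asf1a at a level near that of granulocyte progenitor-like cells, and Asf1b near that of neutrophil-like cells. The library labelled spleen did not show this, with 22.1 CPM of each (5 UMIs each) in vehicle T cell-like cells and 69.0 CPM of Asf1a in granulocyte progenitor-like cells. Asf1b of the library labelled spleen stood at 98.4 CPM in progenitor-like and 51.3 in neutrophil-like cells, a difference of 0.94 only, and 105 CPM in cluster 8 over all assigned cells. Without cluster 8 the difference was 6.36, where few Asf1b UMIs were left in neutrophil-like cells, so its size is uncertain. Cluster 8 was left out for its G2/M UMIs, so a wider difference in a gene of proliferating cells is no separate result. Vehicle endothelial cell-like and hepatocyte-like cells of that library had 0 Asf1b UMIs, which allows up to 33.0 and 24.8 CPM.

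Chaf1a and Chaf1b, the CAF-1 subunits, had few UMIs and were found mostly in the same classes as Asf1b. Chaf1a of the library labelled liver stood at 2.75 CPM in vehicle neutrophil-like, 2.01 in T cell-like, 24.4 in monocyte-like, 36.2 in granulocyte progenitor-like and 69.6 in stem or early progenitor-like cells. Chaf1b had 1.92, 19.4 and 49.6 CPM in neutrophil-like, granulocyte progenitor-like and stem or early progenitor-like cells. The progenitor-like over neutrophil-like difference was 3.72 for Chaf1a and 3.34 for Chaf1b. Within the library labelled spleen Chaf1a went from 14.3 to 42 CPM and Chaf1b from 6.79 to 30.01, differences of 1.56 and 2.14.

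**Figure D4:**
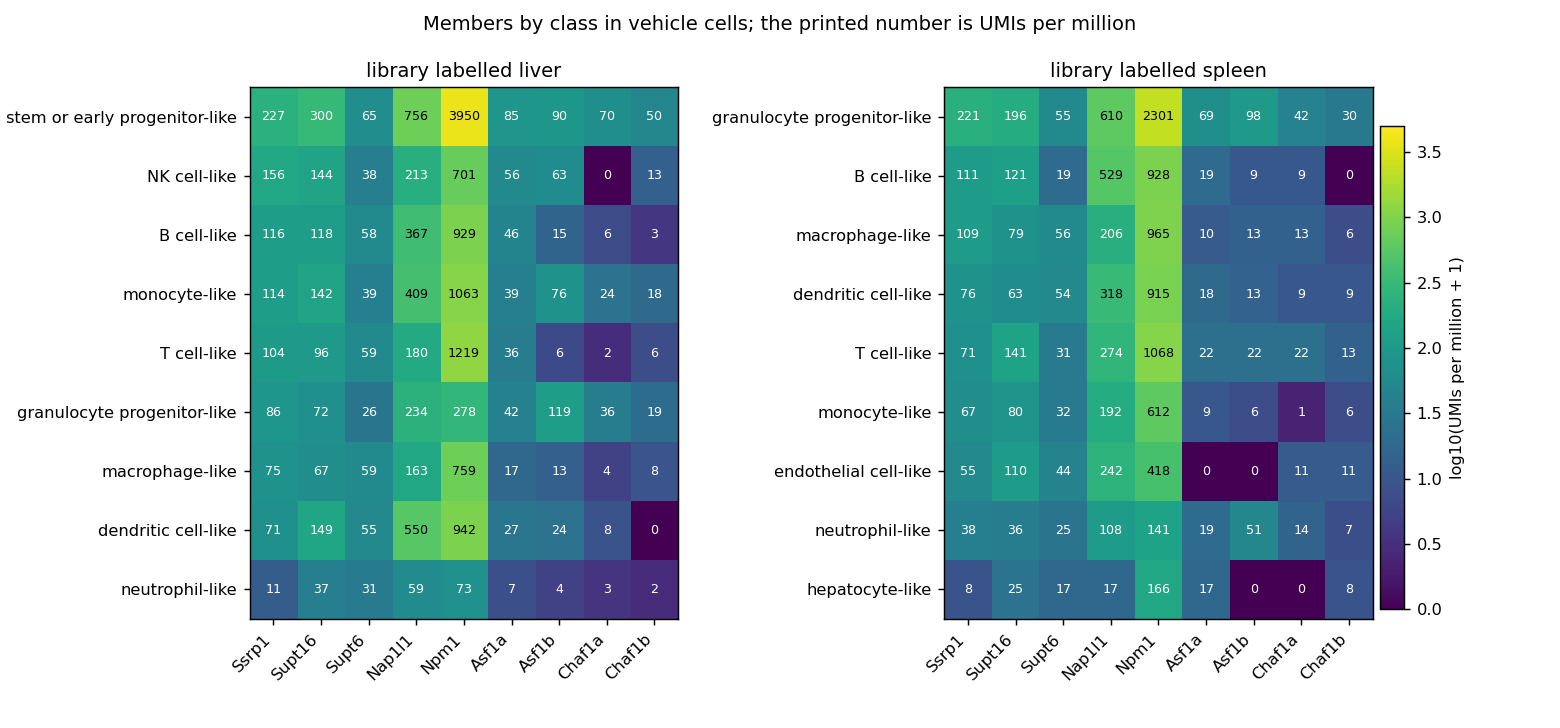
CPM of the 9 members (columns) in each class with at least 20 vehicle cells (rows, ordered by Ssrp1) of the 2 libraries; the color is log10 of CPM plus 1 and the printed number is CPM. Stem or early progenitor-like cells lead the library labelled liver and granulocyte progenitor-like cells the library labelled spleen, while T cell-like and B cell-like cells have Npm1 between 928 and 1219 with Asf1b at most 22.1.

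Stem or early progenitor-like cells could be compared with granulocyte progenitor-like cells in the library labelled liver over all groups (119 and 244 cells). Npm1 differed most, by 3.71 on the log2 scale, followed by Supt16 (1.999), Nap1l1 (1.57), Ssrp1 (1.42), Chaf1b (1.22), Asf1a (1.11), Supt6 (0.99) and Chaf1a (0.62). Asf1b was lower in the stem or early progenitor-like cells, at -0.82 on the log2 scale. At least 2-fold higher were 6 of the 9 members, where 52.8% of 10437 genes were, with a median of 1.08 over all genes. Without the 20 most abundant genes in the total, the split of all genes went from 5506 higher and 874 lower to 3556 and 1508 and their median to 0.47, and FACT differed by 1.10 in place of 1.71.

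Of the 25 other histone chaperone genes, most of those tested were higher in progenitor-like cells as well. Of 22 in the library labelled liver, 13 were at least 2-fold higher than in neutrophil-like cells, where 22.6% of all genes tested were, with Mcm2 (3.97 on the log2 scale), Mms22l (3.92) and Dnajc9 (3.29), which bind H3-H4 at or near the replication fork, at the top. Ubn2 (-1.44), a subunit of the replication-independent HIRA complex, Spty2d1 (-0.58) and Daxx (-0.39, interval -0.93 to 0.13) were at the other end. Of 22 in the library labelled spleen, 17 were at least 2-fold higher, where 51.3% of all genes were and their median was 1.05, led by Npm3 (3.83), Ncl (3.58) and Set (3.31), with Ubn1 (0.63), Anp32a (0.41) and Spty2d1 (-0.13) at the low end. Ncl and Npm3, like Npm1, are nucleolar.

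Likeness to other genes was measured by Pearson's r of log2(CPM + 10) over 12 class and library points of vehicle cells, among 8382 genes. These points share libraries and differ in depth, so r is a description. Nearest to Ssrp1 were Banf1, Srsf3 and Mrpl15 (r = 0.98 each), and Supt16 came at rank 142 (r = 0.92). The proliferation gene Mki67 came at rank 4637 for Ssrp1 (r = 0.50) and 4236 for Supt16 (r = 0.52). It came at rank 106 for Asf1b (r = 0.91), 99 for Chaf1a (r = 0.91) and 383 for Chaf1b (r = 0.68). The S phase gene Pcna came at rank 226 for Ssrp1 (r = 0.91) and 1193 for Supt16 (r = 0.79). Its rank was 398 for Asf1b (r = 0.71), 351 for Chaf1a (r = 0.74) and 663 for Chaf1b (r = 0.58). Ssrp1 was thus near one cell cycle gene and far from the other. Supt16 was most like Ube2k, Rsl24d1 and Lyar (r = 0.97). Asf1b was most like Rrm2, Tyms and H2afx (0.98), of which Rrm2 and Tyms make deoxynucleotides, and Chaf1a most like Ndc80 (0.99), Tk1 and Tyms. Incenp, Mcm5 and Hacd1 were nearest to Chaf1b, Fmc1, Cbx3 and Dut to Asf1a, Emg1, Hsp90ab1 and Ash2l to Npm1, Xpo1, Meaf6 and Aarsd1 to Nap1l1, and Sos1, Gnl3 and Ranbp10 to Supt6.

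A class of 74 cells of the library labelled spleen, led by Wfdc2, Krt8, Krt18 and Krt19, was called 4T1 tumor cell-like. It had 11 cells in the vehicle, 16 in the low dose and 47 in the high dose group. The name came from a list of 9 epithelial markers, of which 5 were raised. Whether these cells came from the 4T1 line or from other epithelium was not tested. FACT stood at 334 CPM in them and at 186 CPM in all other cells of the library, a difference of 0.85 (0.74 to 0.95) on the log2 scale. This pooled value rests mainly on high dose cells. Within the groups the difference was 0.16 (-0.45 to 0.71) in the vehicle, 0.70 (0.42 to 0.97) in the low dose and 0.92 (0.79 to 1.05) in the high dose group, so none could be shown in the 11 vehicle cells. Tumor cell-like cells were not set apart from every class of the library. Over all groups granulocyte progenitor-like cells had more FACT, at 416 CPM (397 to 435). T cell-like cells had 326 CPM (303 to 350), which overlaps the tumor cell-like interval of 312 to 357. Ssrp1 stood at 139, 168 and 195 CPM in tumor cell-like cells of the vehicle, low dose and high dose groups, and Supt16 at 69.4, 135 and 152 CPM. Among vehicle cells alone Supt16 lay below the level of all other cells, at -0.39 (-1.52 to 0.55) from 9 UMIs, and macrophage-like cells had 79.0 CPM. Over all groups, Chaf1b (1.51), Npm1 (1.62) and Asf1a (1.05) were at least 2-fold higher than in all other cells, so 3 of 9 members passed that fold where 23.3% of 13167 genes did. Ssrp1 (0.96), Nap1l1 (0.95), Chaf1a (0.75), Supt16 (0.71) and Supt6 (0.46) lay below it, and Asf1b stood at 0.00. Without the 20 most abundant genes in the total, the split of all genes went from 3065 higher and 3249 lower to 2334 and 3750, their median from 0.17 to -0.09 and the FACT difference to 0.59.

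Against hepatocyte-like cells the differences were wider. FACT was higher in tumor cell-like cells by 3.42 (2.69 to 4.27) on the log2 scale, with 15 FACT UMIs (31.1 CPM) in all 163 hepatocyte-like cells, and 9 of 9 members were at least 2-fold higher. Of all 8879 genes tested 86.3% were at least 2-fold higher too, and the median of all genes was 2.50. Without the 20 most abundant genes in the total this median was 1.15, with 4772 genes higher and 639 lower in place of 7661 and 240, and FACT differed by 2.07. Against endothelial cell-like and macrophage-like cells, which had no such excess of mitochondrial transcripts among their leading genes, FACT differed by 0.90 and 0.94 over all groups and by 0.34 (-0.63 to 1.35) and 0.15 (-0.50 to 0.75) among vehicle cells. By group, FACT in tumor cell-like cells stood at 208 (137 to 303), 302 and 347 CPM in the vehicle, low dose and high dose groups, from 11, 16 and 47 cells, which are too few for a comparison of the groups here.

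CBL0137 acts on FACT at the protein level, and its transcripts were compared between the groups class by class. In neutrophil-like cells in the library labelled liver FACT stood at 48.1, 34.7 and 25.2 CPM in the vehicle, low dose and high dose groups. The intervals of the 3 groups did not overlap. FACT differed from the vehicle by -0.94 (-1.25 to -0.63) on the log2 scale after the high dose and by -0.47 after the low dose, Supt16 by -1.02 and -0.47, and Ssrp1 by -0.70 and -0.47. Asf1a (-1.24) and Supt6 (-0.67) were at least 1.5-fold lower after the high dose too, whereas Npm1 (-0.54), Chaf1b (-0.36), Nap1l1 (-0.21), Chaf1a (-0.14) and Asf1b (-0.06) lay within that fold. Thus 4 of 9 members were lower by 1.5-fold, where 35.8% of 9137 genes were, and the members' median of -0.54 stood beside -0.38 for all genes.

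The make-up of the neutrophil-like class moved with the dose. Cluster 2 of the library labelled liver had 652 vehicle, 310 low dose and 9 high dose cells and cluster 3 had 345, 448 and 3, and these were the clusters with the most Supt16 among its neutrophil-like cells. The class held 1430, 1292 and 199 cells with a median of 4371, 5732.5 and 18606 UMIs per cell. Within the clusters with at least 20 cells in both groups, FACT differed by -0.68 (-1.31 to -0.07) in cluster 6, -0.42 (-0.90 to 0.03) in cluster 7 and 0.14 (-0.99 to 1.17) in cluster 9. A lower FACT level after the high dose was therefore seen within 1 of the 3 clusters beyond counting error.

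In neutrophil-like cells of the library labelled spleen FACT was near the vehicle level after the high dose. FACT stood at 74.7, 55.3 and 75.3 CPM in the vehicle, low dose and high dose groups, a difference of 0.01 (-0.28 to 0.31) for the high dose. Chaf1b was the 1 member of 9 that was at least 1.5-fold higher, where 9.35% of 7472 genes were. The groups filled the class from different clusters: cluster 13 held 2 vehicle, 121 low dose and 2 high dose cells, cluster 3 held 101, 125 and 3, and cluster 0 held 109, 192 and 23. Cluster 8, the cycling one, held 65 of 359 vehicle and 44 of 154 high dose cells, and without it vehicle cells had 39.7 and high dose cells 25.8 CPM of FACT, a difference of -0.62 (-1.27 to 0.00). Within clusters 0, 1 and 8 the differences were -0.93, 0.13 and 0.19, each with an interval that included 0. With log-normalization for the clustering the difference over the class was -1.04.

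**Figure D5:**
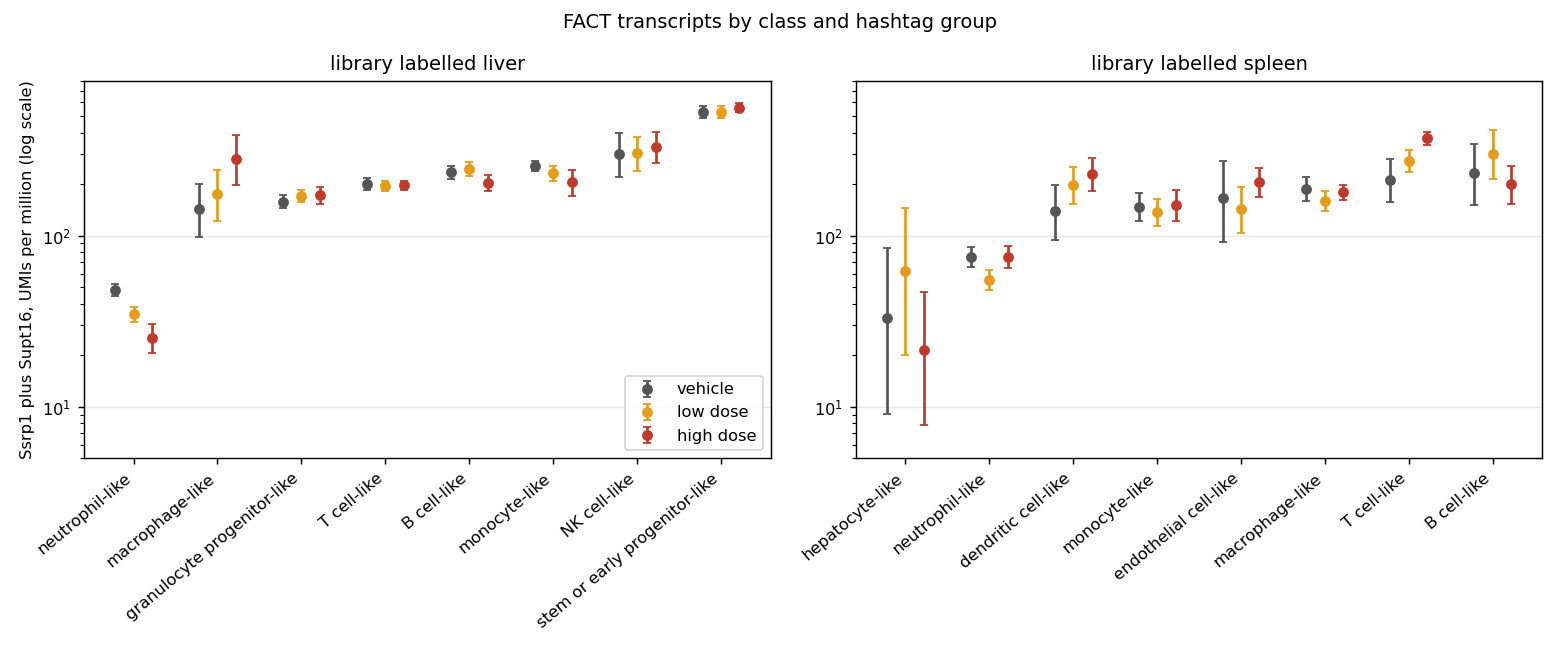
FACT (Ssrp1 plus Supt16) in CPM on a log axis in the vehicle (grey), low dose (orange) and high dose (red) groups of the 2 libraries, for each class with at least 20 vehicle and 20 high dose cells; bars are exact 95% counting intervals. Neutrophil-like cells in the library labelled liver go from 48.1 to 34.7 and 25.2, and T cell-like cells in the library labelled spleen from 212 to 369 at the high dose.

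In the progenitor-like classes of the library labelled liver the FACT difference had an interval that included 0. FACT in granulocyte progenitor-like cells of the library labelled liver differed by 0.13 (-0.08 to 0.33) between the high dose and the vehicle, with Ssrp1 at 86.3, 90.0 and 93.6 CPM and Supt16 at 71.7, 80.5 and 78.9 CPM after the vehicle, low dose and high dose. In stem or early progenitor-like cells the difference was 0.09 (-0.06 to 0.23), while Asf1b stood lower there, at 89.6, 62.5 and 58.0 CPM in the same order, a difference of -0.63 (-1.02 to -0.23). Granulocyte progenitor-like cells of the library labelled spleen numbered 71, 90 and 14, with Ssrp1 at 221, 230 and 163 CPM. Their FACT level was 417 (387 to 449), 432 and 310 (256 to 372) CPM, so the vehicle and high dose intervals did not overlap, but the high dose group had fewer cells than the 20 set for a comparison of groups.

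T cell-like cells of the library labelled liver had 200 CPM of FACT in the vehicle and 197 in the high dose group, a difference of -0.02, and B cell-like cells differed by -0.20 there and by -0.22 in the other library. The B cell-like class of the library labelled liver held cluster 20, led by Vpreb3 and Vpreb1, with 46 vehicle, 1 low dose and 0 high dose cells, and cluster 17 with 2, 146 and 1. Within its largest cluster, cluster 1, FACT differed by -0.18 (-0.39 to 0.04). The T cell-like class of the library labelled spleen had 212 CPM in the vehicle and 369 in the high dose group, a difference of 0.80 (0.37 to 1.26), from 44 and 169 cells. Ssrp1 stood at 70.6, 144 and 215 CPM there after the vehicle, low dose and high dose, Supt16 at 141, 129 and 154 CPM, Nap1l1 at 274, 334 and 480 CPM and Asf1b at 22.1, 28.2 and 83.2 CPM. At least 1.5-fold higher after the high dose were 7 of the 9 members, where 24.1% of 7225 genes were. The members' median was 0.96 against 0.10 for all genes. Among the members counted, Chaf1b, Asf1a, Asf1b, Chaf1a and Supt6 had only 3, 5, 5, 5 and 7 UMIs in the vehicle group. The vehicle and high dose intervals overlapped for Chaf1b, Asf1a, Chaf1a and Supt6, and did not for Ssrp1, Nap1l1 and Asf1b. Within T cell-like cluster 6, led by Ms4a4b and Il2rb, FACT went from 194 CPM in 24 vehicle cells to 448 CPM in 90 high dose cells, a difference of 1.20 (0.46 to 2.05), while it differed by -0.01 within cluster 11, led by Ccl5, Gzma and Cd8a. At a clustering resolution of 1.6 the FACT difference over the class was 0.01, and the difference between the libraries was not tested.

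Other named classes gave smaller or less certain differences. Cells of the unnamed clusters of the library labelled liver had 260 (219 to 307), 350 (302 to 403) and 456 (413 to 502) CPM of FACT. These are the vehicle, low dose and high dose groups, and the clusters are of different kinds. Among them, cluster 12 held 77, 53 and 103 cells in the same order, with Hbb-bs, Top2a and Mki67 among its leading genes. Monocyte-like cells of the library labelled liver had a FACT difference of -0.33 (-0.61 to -0.06) after the high dose, with Npm1 at -0.62, Asf1a at -0.90, Asf1b at -0.98 and Chaf1b at -1.50, and 4 of 9 members were at least 1.5-fold lower where 17.2% of 8879 genes were. These values rest on 26 high dose cells. The S phase list summed to 1044, 726 and 559 CPM in this class in the vehicle, low dose and high dose groups. Macrophage-like cells of that library went from 143 to 279 CPM of FACT, a difference of 0.97 (0.26 to 1.68) from 34 and 37 UMIs. Their S phase list stood at 252, 257 and 686 CPM in the same order of groups. The part of cycling in the differences of these 2 classes was not tested. With log-normalization for the clustering the FACT differences became 0.18 in monocyte-like and -0.01 in macrophage-like cells. FACT of the library labelled spleen differed by -0.07 in macrophage-like, 0.03 in monocyte-like and 0.72 (0.11 to 1.37) in dendritic cell-like cells. The dendritic cell-like class there had a median of 996 UMIs in 59 vehicle cells and 8950 in 36 high dose cells. Of its 10 markers 4 were raised and 0 were among the 10 leading genes, which included Ighm.

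Levels over all assigned cells moved with the weight of the classes in a group. For the library labelled liver, FACT stood at 150, 145 and 216 CPM in the vehicle, low dose and high dose groups, and Npm1 at 627, 647 and 1224 CPM, differences of 0.52 and 0.96 between the high dose and the vehicle. With the classes weighted as in the vehicle group, the differences were -0.10 for FACT and 0.00 for Npm1. At least 1.5-fold higher were 3 of the 9 members, where 26.5% of 12985 genes were, and without the 20 most abundant genes in the total the split of all genes went from 3441 higher and 1409 lower to 2325 and 1853 and their median from 0.26 to 0.09. For the library labelled spleen, FACT stood at 187, 191 and 217 CPM, a difference of 0.21 that became -0.13 with vehicle weights. Not every member moved toward 0 with these weights. Asf1b of the library labelled liver went from -0.13 to -0.29 and Chaf1a of that labelled spleen from 0.48 to 0.57.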

How the data were processed

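The files hold UMI counts of genes and hashtags in each barcode that passed cell calling, which the authors deposited without normalization or cell type names. The matrix header gives Cell Ranger 5.0.0, and the submitters' processing notes give Cell Ranger 6.0.0, Seurat and mm10. No source used here states whether the counting used strand.

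Groups were assigned by HTODemux (Seurat 5.3.0, quantile 0.99). Barcodes with several hashtags (616 in the library labelled liver, 215 in that labelled spleen) or with none (540 and 1627) were left out. Each library was clustered alone in R 4.3.3 with SCTransform (sctransform 0.4.2), 30 principal components and a shared nearest neighbor graph cut at resolution 0.8, without the histone chaperones among the variable features. A cluster was called X-like where at least 3 listed markers had a log2 fold of at least 1 over the other cells, with 10 CPM added, in at least 20% of its cells, and where no other list had more markers than its own among the 10 leading genes. A cluster with a median of UMIs far below that of its library was left unnamed when none of its own markers was among the leading genes. Cluster 15 of the library labelled liver (163 cells, median 888 UMIs, 7 of 11 T cell markers raised) was left unnamed by this rule. Doublets within a hashtag were kept. Scrublet (scanpy 1.11.5) called 248 barcodes (2.59%) of the library labelled liver and 1 (0.0207%) of that labelled spleen, where it thus did not work.

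The UMIs of a gene were summed within a class and group and divided by all gene UMIs of those cells (CPM), with exact Poisson intervals for levels and exact conditional binomial intervals for ratios, at 95%. Counts of 0 carry a limit of 3 counts. A gene entered a comparison with at least 20 UMIs over both sides, and was counted at 2-fold between classes and at 1.5-fold between groups, the latter with at least 20 cells in each. Ratios and intervals were checked on simulated data. A group held 17333148 to 26508853 UMIs in the library labelled liver and 7130127 to 10589251 in that labelled spleen. Python 3.11.15, numpy 2.4.6, scipy 1.17.1, pandas 2.3.3 and matplotlib 3.10.9 were used. There were 0 columns of other samples.

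The named genes are all 9 members. Of the 25 other chaperones, those 3 with the highest and those 3 with the lowest progenitor-like over neutrophil-like ratio among genes with at least 50 UMIs are named in each library, and for each member the 3 genes of highest r among those with at least 200 UMIs in each library, over classes of at least 50 vehicle cells. Overlapped genes and the leading genes of clusters are named as descriptions. The members and lists were chosen with earlier results of these data known. Alternatives were other hashtag calls (MULTIseqDemux, the dominant hashtag), a cell filter (200 genes, 10% mitochondrial UMIs), Scrublet doublets removed, resolutions 0.4 and 1.6, all variable features, log-normalization with 2000 genes, totals without the 20 most abundant genes, a mean over cells, the low dose, single clusters, and other minimum counts. Leaving out the neutrophil-like cluster with the most G2/M UMIs (7 in the library labelled liver, 8 in the library labelled spleen) and comparing within each group what was pooled over groups were chosen after seeing the data. Other experiments of the study were not analysed here.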

Additional observations from a re-analysis of the deposited data

Results flagged for a closer look

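FACT transcripts were found above the vehicle level in barcodes of the library labelled liver that the report's comparisons left out. The 540 barcodes of the library labelled liver without a hashtag call held 978 FACT UMIs, or 389.8 CPM (95% interval 365.8 to 415.1), against 150 CPM in vehicle cells. Their median was 1784.5 UMIs per barcode. Assigned cells of the unnamed clusters of that library stood near this FACT level, at 373 CPM (347 to 401) over all groups, with a median of 1317 UMIs. The 1627 barcodes of the library labelled spleen without a call did not stand above the vehicle, at 175 CPM (163 to 187) against 187 CPM, and 1425 of them had A0310 as the dominant hashtag. Barcodes without a call entered a comparison only under the alternatives with another hashtag call. No class was assigned to them for the values above, while vehicle classes of the library labelled liver differed in FACT. These went from 48.1 CPM in neutrophil-like to 527 CPM in stem or early progenitor-like cells. The part of class make-up in the FACT level of barcodes without a call was not tested.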

How the results depend on the processing

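Of 2685 recomputed log2 ratios of the members and FACT, 2277 stayed within the 95% counting interval of the value they were compared with, 377 lay outside it in the same direction or around no difference, and 31 changed sign from a value whose interval excluded 0. The cause of these changes was not tested unless the setting itself names it. The totals pool processing settings with other comparisons, namely the low dose, single groups and single clusters. The low dose in place of the high dose gave 34 outside the interval and 10 changes of sign. Removing Scrublet doublets left 236 within it and 1 outside, and using all variable features left 233 and 3, so these settings changed little.

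The FACT difference of progenitor-like over neutrophil-like cells in the library labelled liver was 1.71 and became 2.36 at resolution 0.4, 1.89 at resolution 1.6 and 1.31 as a mean over cells. The library labelled spleen gave 2.48 which became 2.85 with log-normalization, 1.86 without the 20 most abundant genes and 3.39 without the cycling neutrophil-like cluster. The tumor cell-like difference of 0.85 became 0.59 without the 20 most abundant genes and 1.11 as a mean over cells, and it was 0.16 within vehicle and 0.70 within low dose cells alone. Among vehicle cells alone, Supt16 (-0.39) and Chaf1a (-1.29) turned against all other cells and Supt16 (-0.19) against macrophage-like cells. Asf1b in stem or early progenitor-like over granulocyte progenitor-like cells turned to 0.15 with log-normalization.

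The high dose difference of FACT in neutrophil-like cells in the library labelled liver (-0.94) was -1.35 as a mean over cells, -1.31 without the cycling cluster, -0.47 at the low dose, -0.42 within cluster 7 and 0.14 within cluster 9. Within cluster 9, Ssrp1 (0.36), Supt16 (0.10), Supt6 (0.49), Npm1 (1.84) and Asf1a (0.10) turned, and Npm1 turned within cluster 6 (0.44). In neutrophil-like cells of the library labelled spleen FACT (0.01) was -1.04 with log-normalization, -0.62 without the cycling cluster, -0.43 at the low dose and -0.93 within cluster 0.

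FACT in T cell-like cells of the library labelled spleen (0.80) was 0.0094 at resolution 1.6 and 0.36 at the low dose, and Npm1 there turned to -0.17 and -0.0075. In B cell-like cells of the library labelled liver FACT was 0.067 at the low dose, Asf1a turned to 0.038 at the low dose and Npm1 to -0.047 as a mean over cells. Npm1 in T cell-like cells of that library turned to -0.021 at the low dose. With log-normalization, FACT (0.18), Nap1l1 (0.10) and Asf1b (0.12) turned in monocyte-like cells and FACT (-0.012) in macrophage-like cells of that library. Npm1 in stem or early progenitor-like cells turned to -0.12 with the dominant hashtag. In the library labelled spleen, Nap1l1 (-0.046, low dose) and Asf1b (-0.17, mean over cells) turned in dendritic cell-like cells, and Nap1l1 in endothelial cell-like cells (0.024 with MULTIseqDemux, 0.076 with the dominant hashtag).

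Over all assigned cells of the library labelled liver FACT (0.52) was 0.44 with MULTIseqDemux, 0.36 with the dominant hashtag, 0.35 without the 20 most abundant genes and -0.055 at the low dose, where Ssrp1 (-0.058), Supt16 (-0.053), Nap1l1 (-0.15), Chaf1a (-0.32) and Chaf1b (-0.085) turned too. For the library labelled spleen FACT (0.21) was 0.028 at the low dose.

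Numbers of genes past the fold depended on the minimum count. With at least 100 UMIs, and with at least 1, in place of 20, the genes higher in progenitor-like cells numbered 1253 and 3472 (2149) for the library labelled liver and 1862 and 7677 (4360) for that labelled spleen, 3343 and 8886 (5506) were higher in stem or early progenitor-like cells, and 6661 (3065, at least 1 UMI) and 3448 (7661, at least 100 UMIs) in tumor cell-like over all other and over hepatocyte-like cells. After the high dose, 1719 and 5205 (3273) were lower and 141 and 2785 (699) higher in neutrophil-like cells of the libraries labelled liver and spleen, 434 and 2883 (1743) higher in T cell-like cells, 490 and 2446 (1528) lower in monocyte-like cells and 6573 (3441, at least 1 UMI) higher over all assigned cells.

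No paired analysis was possible because each group was 1 pooled sample per library, and leaving out a replicate was not possible for the same reason. Chaf1a and Chaf1b, with under 100 UMIs in many classes, are limited most by depth.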
